A study of Mus musculus with 8 samples.

Results

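The genes described here are the secreted Wnt proteins, the receptors that bind them and the inhibitors that limit them, as measured on 8 one-colour microarrays of mouse pluripotent cells. They were chosen by name: all symbols of the Wnt, Fzd, Sfrp and Dkk families plus Axin2, Lrp5, Lrp6, Nkd1 and Wif1. That gave 42 genes, namely 19 ligands, 12 receptors and co-receptors, 9 secreted inhibitors and 2 intracellular feedback genes. Of these, 30 exceeded background clearly on 3 or more arrays and are among the 22685 features tested. The cells were 4 samples of OSKH induced pluripotent stem cells (iPSCs), 3 of OSK iPSCs, which serve as the control group, and 1 of the embryonic stem cell (ESC) line B6J-23. All are of the C57BL/6J strain and were kept undifferentiated. OSK is read here as the reprogramming factors Oct4, Sox2 and Klf4 and the H as the oocyte linker histone H1foo, names that the labels abbreviate without explaining. The sources used here do not say how the factors were delivered, nor whether the arrays of a group stand for different lines, clones or cultures. The p-values therefore reflect the spread among these arrays alone, and part of that spread may be technical.

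Wnt proteins are lipid-modified signals that cells secrete to their neighbours. Bound to a Frizzled receptor together with Lrp5 or Lrp6, they stop the complex of Axin, Apc and Gsk3 from degrading beta-catenin, which then enters the nucleus and activates genes with TCF and LEF factors. Other Wnts act through Frizzled without beta-catenin and steer cell polarity and movement. In mouse pluripotent cells the beta-catenin branch is known to support self-renewal, and in the gastrulating embryo it is needed for the primitive streak. Dkk proteins such as Dkk1, though not all of the family, block Lrp5 and Lrp6, Sfrp proteins and Wif1 bind the ligands, and Axin2 and Nkd1 damp the signal inside the cell.

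A level is the log2 signal of a probe after subtraction of the array's 75th percentile, which makes 0 the signal at that percentile. A difference is a difference of log2 levels, and its standard error (SE) comes from limma. Since one probe's brightness cannot be set against that of another, levels are compared between arrays and not between genes. The share of probes well above background ran from 51.4% to 59.0%. The 8 arrays shared a slide. One row of it held ESC with OSKH 1 to 3, and the other held OSKH 4 beside the 3 OSK arrays. The array OSKH 4 stood apart from the other OSKH arrays in the markers of early lineages. The summed signal of 8 markers of primitive and definitive endoderm, in multiples of the 75th percentile, was 21.3 on OSKH 4 with 8 of 8 detected. It was 0.584 to 0.883 on OSKH 1 to 3, 0.341 to 0.584 on OSK and 2.32 on ESC. That of 7 primitive streak and mesoderm markers was 28.0 with 7 of 7 detected, against 0.701 to 1.52, 0.583 to 0.878 and 3.13. Trophectoderm markers summed to 71.6 on OSKH 4 and to between 20.3 and 31.0 elsewhere, with 5 of 7 detected on OSKH 4 and 4 or 5 on other arrays. Fibroblast markers summed to 42.8 on OSKH 4, 44.0 on ESC and between 25.1 and 31.1 elsewhere. OSKH 4 was the highest array in 2 of 4 endoderm, 4 of 5 trophectoderm and 4 of 7 fibroblast markers tested. The 4 endoderm markers differed on OSKH 4 from the OSK mean by 7.75 for Foxa2, 2.37 for Cxcr4, 0.79 for Sox7 and 0.70 for Dab2. In the other 2 lists OSKH 4 differed from the OSK mean by 3.59 for Krt8 and 3.07 for Col1a1, but by 0.38 for Tfap2c and -0.31 for Vim. The 10 pluripotency markers were detected on all 8 arrays, with sums from 598 to 856, and 6 neural markers summed to between 12.4 and 17.0. All 6 neural markers had a lower mean in OSKH than in OSK, with a median difference of -0.87. Limma called 0 of them, and 3 had an unadjusted p under 0.05, against 6.48% of all features. In such bulk samples, a change in the number of cells of one kind cannot be told apart from a change in RNA per cell.

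Most of the Wnt receptors were measured everywhere, while many ligands were not. All 12 receptors and co-receptors were well above background on all 8 arrays, as were 7 of 19 ligands, 5 of 9 secreted inhibitors and both feedback genes. A further 4 ligands (Wnt4, Wnt6, Wnt7b and Wnt16) were measured on 3 to 7 arrays. Another 5 genes were measured on 1 or 2 arrays: Wnt10a and Dkk1 on OSKH 4 only, Dkk4 on OSKH 1 only, Dkk2 on ESC and OSK 1, and Wif1 on OSKH 3 and OSK 3. The other 7, all ligands (Wnt2, Wnt2b, Wnt3a, Wnt7a, Wnt8b, Wnt9b and Wnt10b), were not well above background on any array, which sets only an upper limit on their signal. Each array had 29 to 31 of the 42 genes well above background. The plot of all 42 genes by array shows these levels.

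**Figure D1:**
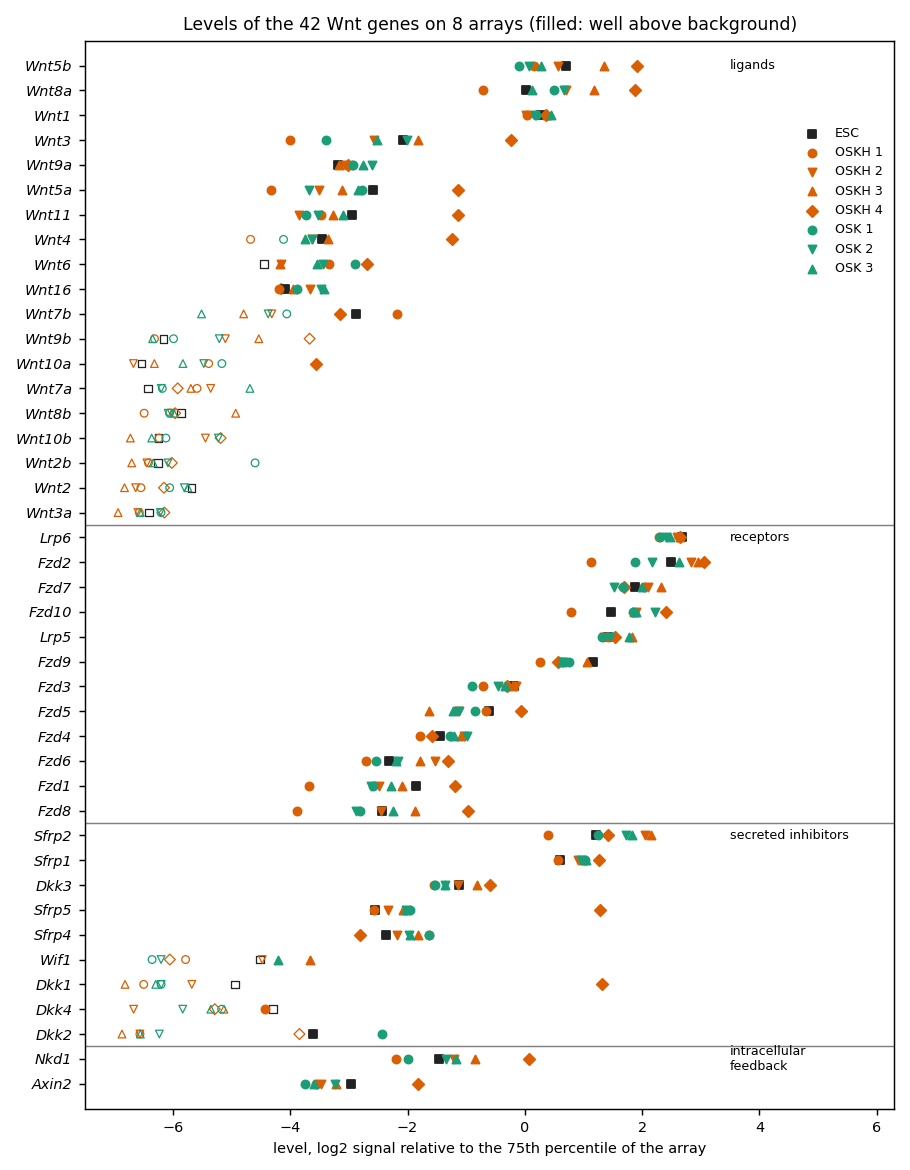
Level of each of the 42 Wnt genes on each of the 8 arrays, as log2 signal relative to that array's 75th percentile (horizontal axis), with genes grouped by role. Each point is 1 array, filled where the probe was well above background; OSKH 4 (orange diamonds) was the highest of the 8 arrays in 18 of the 30 genes tested, and Dkk1 is filled on OSKH 4 only.

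The comparison of OSKH with OSK asks whether iPSCs made with the additional factor differ from the control iPSCs. Limma called 0 of the 30 Wnt genes at an adjusted p under 0.05, and 0.0% of all 22685 features. At an unadjusted p under 0.05 there was 1 Wnt gene, Wnt9a, against 6.48% (1470) of all features. With array number as a block, which pairs arrays 1 to 3 and leaves out OSKH 4, 0 were called and 4 had an unadjusted p under 0.05 (Wnt6, Wnt16, Wnt5b and Fzd7, but not Wnt9a), against 10.2% of all features. The difference was above 0 in 20 Wnt genes and below 0 in 10, with a median of 0.21, where 46.3% of all features lay above 0 and their median was -0.01. This split rested on a single array. Without OSKH 4, 11 Wnt genes lay above 0 and 19 below with a median of -0.06, and without OSKH 1 the counts were 24 and 6 with a median of 0.42. The 4 OSKH arrays and the 3 OSK arrays did not overlap in 1 of the 30 genes, Wnt9a, where OSKH was lower, against 7.34% of all features (3.15% with OSKH higher and 4.19% with OSKH lower).

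**Figure D2:**
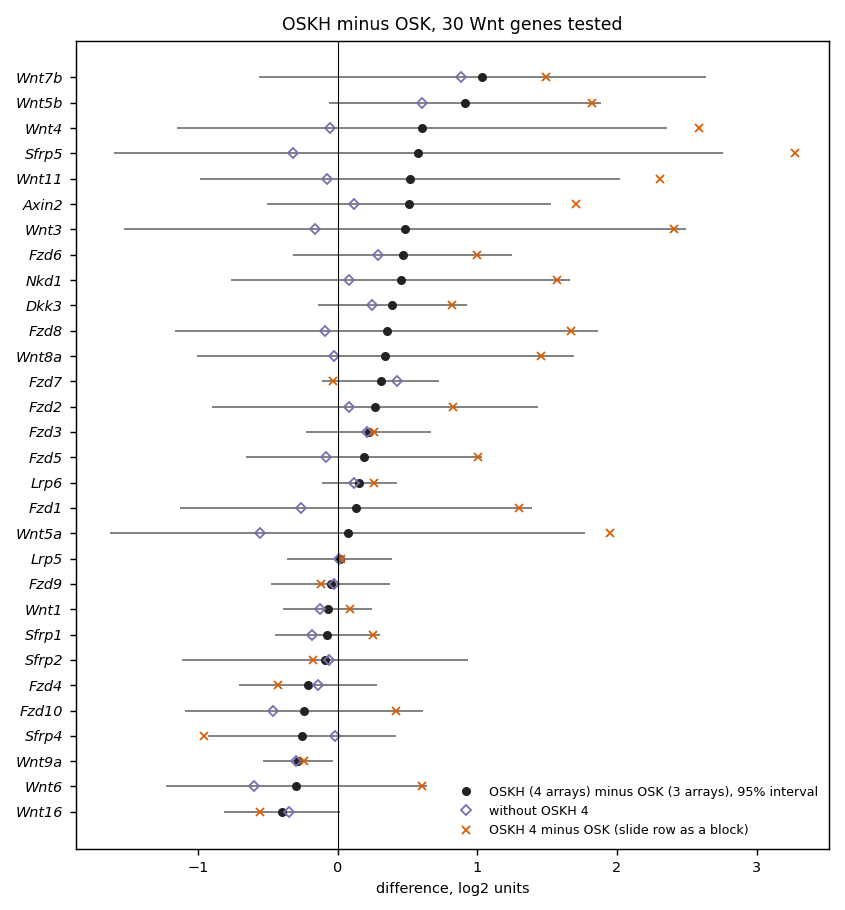
OSKH minus OSK in log2 units for the 30 Wnt genes tested, with the limma estimate over 4 OSKH and 3 OSK arrays (black points) and its 95% interval (grey lines). Diamonds leave out OSKH 4 and crosses set OSKH 4 alone against the 3 OSK arrays of its slide row; Sfrp5 moves from -0.32 to 3.28 between these settings, and the interval of Wnt9a alone excludes 0.

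Among the ligands, 7 of the 11 tested lay above 0 and 4 below, and 0 were called. Wnt9a, a ligand of developing joints, was at -2.95, -3.07, -3.17 and -3.01 on OSKH 1 to 4 and at -2.93, -2.60 and -2.77 on OSK 1 to 3, with ESC at -3.19. All OSKH arrays lay below all OSK arrays, by a narrow margin. The difference was -0.28 (SE 0.11, limma adjusted p = 0.752). Wnt16, a ligand that limits loss of cortical bone, was at -4.20, -3.67, -3.96 and -4.15 on OSKH and -3.89, -3.48 and -3.42 on OSK, with ESC at -4.09. OSKH 2 reached into the OSK range, and the probe was measured on 3 of 4 OSKH arrays. The difference was -0.40 (SE 0.17, limma adjusted p = 0.767).

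Wnt5b, a ligand of the branch without beta-catenin that acts in cartilage, was at 0.15, 0.56, 1.35 and 1.91 on OSKH 1 to 4, at -0.10, 0.07 and 0.28 on OSK 1 to 3 and at 0.70 on ESC. OSKH 2 to 4 lay above all OSK arrays and OSKH 1 among them. The means were 0.99 ± 0.79 (SD, n = 4) and 0.08 ± 0.19 (SD, n = 3), and the difference was 0.91 (SE 0.41, limma adjusted p = 0.769), or 0.61 without OSKH 4 and 1.19 without OSKH 1. Wnt7b, a ligand of lung and placenta, was at -2.19, -4.31, -4.79 and -3.15 on OSKH, -4.06, -4.38 and -5.51 on OSK, and -2.89 on ESC. It was well above background on OSKH 1, OSKH 4 and ESC only. As OSKH 2 and OSKH 3 were not measured either, no lower bound is given for OSKH over OSK. The limma fit gave an adjusted p of 0.854, and the groups overlapped. The fitted difference of 1.04 was 0.56 without OSKH 1, 0.61 without OSK 3 and 0.25 with normexp.

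Several ligands were highest on OSKH 4. Wnt3, the ligand needed to form the primitive streak, was at -4.01, -2.58, -1.82 and -0.23 on OSKH 1 to 4, at -3.38, -2.01 and -2.52 on OSK and at -2.08 on ESC. Its OSKH arrays lay on both sides of the OSK range. Wnt8a, another ligand of the streak, was at -0.71, 0.71, 1.19 and 1.88 on OSKH, 0.49, 0.67 and 0.11 on OSK, and 0.02 on ESC. Here too OSKH 1 was the lowest array and OSKH 4 the highest. Wnt4, which acts in kidney and gonad, was at -4.68, -3.63, -3.36 and -1.24 on OSKH, -4.11, -3.62 and -3.75 on OSK, and -3.45 on ESC, and was not well above background on OSKH 1 and OSK 1. OSKH 1 to 3 lay on both sides of the OSK range, and OSKH 4 above every other array.

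Wnt5a and Wnt11, which steer cell movements in gastrulation, were also highest on OSKH 4. Wnt5a was at -4.33, -3.51, -3.12 and -1.15 on OSKH 1 to 4, at -2.77, -3.68 and -2.84 on OSK and at -2.58 on ESC. Wnt11 was at -3.48, -3.86, -3.27 and -1.14 on OSKH, -3.73, -3.53 and -3.10 on OSK, and -2.95 on ESC. In both genes OSKH 1 to 3 lay within or below the OSK range and OSKH 4 above every other array. Group differences were 0.48 for Wnt3, 0.34 for Wnt8a, 0.60 for Wnt4, 0.07 for Wnt5a and 0.52 for Wnt11, none of which passed the test (limma adjusted p from 0.934 to 0.991). Without OSKH 4 each of these 5 differences was below 0, at -0.16, -0.03, -0.059, -0.56 and -0.08 respectively. Wnt6, a ligand of epithelia, was at -3.34, -4.15, -4.17 and -2.68 on OSKH and -2.89, -3.44 and -3.54 on OSK, a difference of -0.30 (SE 0.39, limma adjusted p = 0.941) that was -0.60 without OSKH 4. In the same-numbered pairs 1 to 3 its differences were -0.45, -0.72 and -0.63. The remaining ligand, Wnt1, which patterns the midbrain, ran from 0.02 to 0.45 over all 8 arrays.

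Of the 12 receptors, 9 lay above 0 and 3 below between OSKH and OSK, 0 were called and 0 had groups that did not overlap. Fzd7, a main Frizzled of mouse ESCs, was at 2.03, 2.10, 2.32 and 1.69 on OSKH 1 to 4, at 1.67, 1.52 and 1.99 on OSK and at 1.88 on ESC. OSKH 1 to 3 lay above all OSK arrays and OSKH 4 among them. The difference was 0.31 (SE 0.18, limma adjusted p = 0.842) and 0.42 without OSKH 4. The place of OSKH 4 depended on the probe: minus the OSK mean it was -0.04 for the probe used. For a second Fzd7 probe, also well above background on all 8 arrays, it was 0.69, and that probe's group difference was 0.48. Fzd6, a receptor that orients hair follicles, was at -2.71, -1.53, -1.79 and -1.30 on OSKH, -2.54, -2.16 and -2.19 on OSK, and -2.31 on ESC. OSKH 1 was the lowest of all arrays and the other OSKH arrays lay above OSK, so the difference was 0.46 (SE 0.33, limma adjusted p = 0.870) with OSKH 1 and 0.76 without it. Fzd3, which guides axons, was at -0.71, -0.15, -0.21 and -0.31 on OSKH, -0.90, -0.46 and -0.34 on OSK, and -0.18 on ESC, a difference of 0.22 (SE 0.19) that was 0.055 without OSK 1.

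Fzd1 and Fzd8, both receptors that can signal through beta-catenin, had the widest ranges of the receptors. Fzd1 was at -3.68, -2.50, -2.10 and -1.20 on OSKH 1 to 4, at -2.58, -2.63 and -2.28 on OSK and at -1.85 on ESC. Fzd8 was at -3.89, -2.45, -1.87 and -0.97 on OSKH, -2.81, -2.89 and -2.24 on OSK, and -2.43 on ESC. In both, OSKH 1 was the lowest array and OSKH 4 the highest. Their differences of 0.13 and 0.35 were -0.26 and -0.09 without OSKH 4. The co-receptor Lrp6 spanned 0.39 log2 units in all: 2.29, 2.60, 2.64 and 2.65 on OSKH, 2.30, 2.40 and 2.47 on OSK, and 2.68 on ESC. OSKH 1 sat below the OSK arrays and the other OSKH arrays above them, a difference of 0.15 (SE 0.11, limma adjusted p = 0.874). Its partner Lrp5, which regulates bone mass, differed by 0.01 (SE 0.16) with a 95% interval from -0.36 to 0.39. The receptors Fzd2, Fzd4, Fzd5, Fzd9 and Fzd10 differed by -0.24 to 0.27. For Fzd5 a second probe gave -0.19 where the probe used gave 0.19. In OSKH minus OSK this was the largest gap between probes of 1 gene among the 4 Wnt genes with several probes past the filter.

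The secreted inhibitors held the largest contrast between single arrays. Dkk1, which blocks the co-receptors Lrp5 and Lrp6 and is itself a known target of beta-catenin, was at 1.32 on OSKH 4. Its other 7 values were -6.50, -5.68 and -6.82 on OSKH 1 to 3, -6.20, -6.20 and -6.29 on OSK and -4.94 on ESC, none of them well above background. OSKH 4 lay at least 55.6-fold above the OSK arrays of its slide row. No bound is given for the whole OSKH group, since OSKH 1 to 3 were not measured. As it was measured on 1 array, Dkk1 did not enter the test. Sfrp5, a Wnt-binding protein expressed in the anterior visceral endoderm of the embryo, was measured on all 8 arrays. It was at -2.57, -2.33, -2.08 and 1.27 on OSKH 1 to 4, at -1.95, -2.03 and -2.03 on OSK and at -2.55 on ESC. OSKH 1 to 3 all lay below the 3 OSK arrays and OSKH 4 far above them. The difference was 0.58 (SE 0.92, limma adjusted p = 0.951), -0.32 without OSKH 4 and 0.96 without OSKH 1.

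The sequences just upstream of these 2 inhibitor genes, and of Axin2, are shown because the 3 genes were highest on OSKH 4 and Axin2 and Dkk1 are known targets of beta-catenin. They are the 250 bases before the annotated start from the RefSeq table of assembly GRCm38.p6, read 5′ to 3′ on the strand of the gene. Capitals mark matches to the letters CTTTGA or CTTTGT, the core recognised by TCF and LEF factors, or to their reverse complements.
Dkk1, chr19:30549497-30549746, minus strand: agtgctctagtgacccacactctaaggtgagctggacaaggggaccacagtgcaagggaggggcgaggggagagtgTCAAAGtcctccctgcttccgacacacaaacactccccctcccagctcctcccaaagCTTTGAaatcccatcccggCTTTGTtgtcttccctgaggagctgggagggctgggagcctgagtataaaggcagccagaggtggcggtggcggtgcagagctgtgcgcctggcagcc
Sfrp5, chr19:42202253-42202502, minus strand: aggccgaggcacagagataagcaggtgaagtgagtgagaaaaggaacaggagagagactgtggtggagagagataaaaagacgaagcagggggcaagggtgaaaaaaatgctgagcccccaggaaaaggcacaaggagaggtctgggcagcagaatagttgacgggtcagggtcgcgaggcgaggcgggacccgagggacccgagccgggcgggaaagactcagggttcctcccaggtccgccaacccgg
Axin2, chr11:108920099-108920348, plus strand: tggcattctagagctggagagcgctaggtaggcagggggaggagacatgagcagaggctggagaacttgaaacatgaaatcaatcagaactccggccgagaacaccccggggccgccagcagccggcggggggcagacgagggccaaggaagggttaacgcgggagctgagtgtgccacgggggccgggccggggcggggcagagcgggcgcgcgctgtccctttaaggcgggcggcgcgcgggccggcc
Dkk1 held 3 matches, at 98, 117 and 174 bases upstream of the start, the last of them on the opposite strand. Sfrp5 and Axin2 held 0 in this window. So did Nkd1 and Wnt3, which were also highest on OSKH 4 and whose sequences are not shown, though Wnt3 had a CTTTGT 18 bases after the start. Of the other tested genes highest on OSKH 4 that had a window, Fzd1 held matches at 37 and 242 bases upstream. Wnt11 held a match at 50 and Wnt5b at 71 bases upstream, each in 1 of several windows. Fzd5, Fzd10, Wnt4 and Wnt6 held 0. RefSeq windows were at hand for 28 of the 42 genes, as 31 windows of 300 bases that also take in 50 bases after the start, and 8 of those windows (25.8%) held at least 1 match on either strand. Among all 32851 windows in the table the share was 31.2%. A match is a run of letters and not a measured binding site.

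The remaining inhibitors that were tested spanned narrower ranges than Sfrp5. Dkk3, a divergent member of the Dkk family, was at -1.55, -1.14, -0.81 and -0.59 on OSKH 1 to 4, at -1.53, -1.36 and -1.35 on OSK and at -1.12 on ESC. OSKH 2 to 4 lay above OSK and OSKH 1 was the lowest array, for a difference of 0.39 (SE 0.22, limma adjusted p = 0.841). Sfrp1, Sfrp2 and Sfrp4, which bind Wnts outside the cell, differed by -0.08, -0.09 and -0.26, with groups that overlapped. Sfrp4 was the only one of the 30 genes lowest on OSKH 4, at -2.81 against -2.19 to -1.63 on the other OSKH and the OSK arrays.

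Both intracellular feedback genes were highest on OSKH 4. Axin2, a scaffold of the beta-catenin destruction complex and a widely used readout of beta-catenin activity, was at -3.56, -3.47, -3.21 and -1.82 on OSKH 1 to 4, at -3.75, -3.24 and -3.60 on OSK and at -2.97 on ESC. OSKH 1 to 3 spanned nearly the same range as OSK, and OSKH 4 was 3.27-fold above the OSK mean. The group means were -3.02 ± 0.81 (SD, n = 4) and -3.53 ± 0.26 (SD, n = 3), and the difference of 0.51 (SE 0.43, limma adjusted p = 0.897) was 0.11 without OSKH 4. Nkd1, which binds Dishevelled and restrains signalling, was at -2.20, -1.21, -0.86 and 0.07 on OSKH, -1.99, -1.34 and -1.17 on OSK, and -1.47 on ESC. OSKH 1 was again the lowest array. Its difference was 0.45 (SE 0.51, limma adjusted p = 0.928), or 0.08 without OSKH 4.

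**Figure D3:**
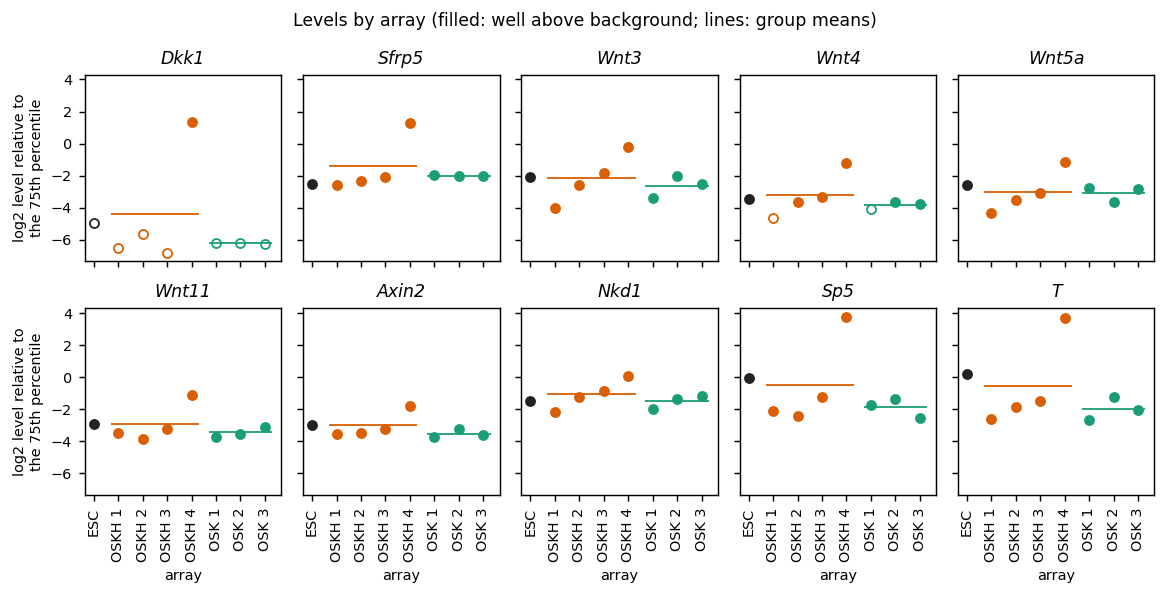
Log2 level of each array, relative to its 75th percentile, for 8 Wnt genes and for the beta-catenin targets Sp5 and T. Points are single arrays, filled where the probe was well above background, and lines are group means over 4 OSKH and 3 OSK arrays. The 10 genes shown all had their highest point on OSKH 4, at 1.32 for Dkk1 and 1.27 for Sfrp5, so the panels do not show how common this was. OSKH 4 was highest in 18 of the 30 Wnt genes and in 6 of the 12 target genes tested, against 11.1% of all features.

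Counted over all 8 arrays, OSKH 4 held the highest level in 18 of the 30 Wnt genes, against 11.1% of all features tested. By role these were 7 of 11 ligands, 6 of 12 receptors, 3 of 5 secreted inhibitors and 2 of 2 feedback genes. OSKH 1 held the lowest level in 18 of the 30, against 23.1% of all features: 5 ligands, 8 receptors, 4 inhibitors and 1 feedback gene. With quantile or median scaling or normexp background correction, OSKH 4 was highest in 18 to 19 genes (8.44% to 13.1% of features) and OSKH 1 lowest in 15 to 18 (18.9% to 24.4%). Both are arrays of the OSKH group. Within that group 1 array lay far from the other 3 in 3 of the 30 genes tested (Sfrp5 on OSKH 4, Lrp6 and Fzd2 on OSKH 1), against 7.11% of all features by the same limit. The summed signals of the endoderm, streak, trophectoderm and fibroblast markers given above were also higher on OSKH 4 than on the other iPSC arrays. The part of these markers in the Wnt gene levels was not tested.

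**Figure D4:**
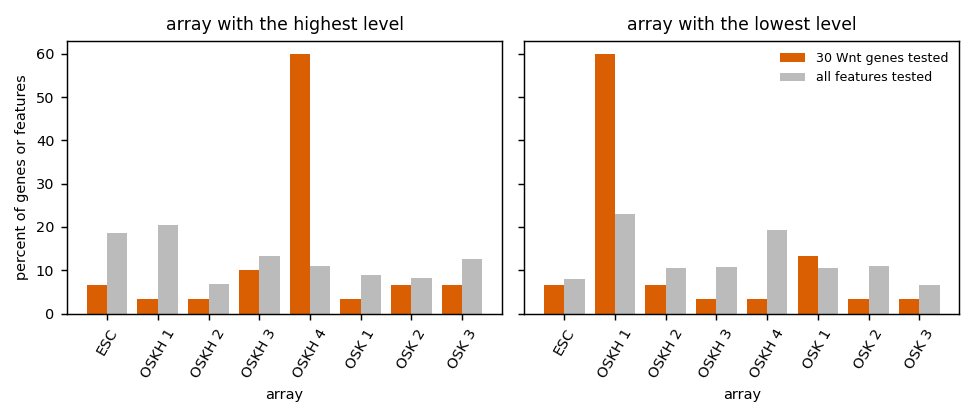
Percent of the 30 Wnt genes tested (orange) and of all 22685 features tested (grey) for which each array held the highest level (left) or the lowest (right). OSKH 4 was highest in 18 Wnt genes against 11.1% of features, and OSKH 1 lowest in 18 against 23.1%.

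Once slide row is a block, the comparison of OSKH with OSK becomes that of OSKH 4 with the 3 OSK arrays beside it, and it assumes that arrays like OSKH 4 would vary as the other iPSC arrays do. Limma then called 1 Wnt gene, Sfrp5, at 3.28 (SE 0.20, limma adjusted p = 0.0146), against 0.207% (47) of all features. Of the 30 Wnt genes, 23 lay above 0 and 7 below with a median of 0.82, and 11 had an unadjusted p under 0.05, against 9.76% of features. Next in order were Wnt11 at 2.31 (limma adjusted p = 0.0817), Axin2 at 1.71 (limma adjusted p = 0.0856) and Wnt4 at 2.59 (limma adjusted p = 0.164), which did not pass. Wnt3 was at 2.41, Wnt5a at 1.95, Wnt5b at 1.82, Nkd1 at 1.57 and Fzd5 at 1.01, and Sfrp4 at -0.96. Where 23 of the 30 Wnt genes lay above 0 in this comparison, 43.4% of all features did, with a median of -0.04. The count of called Wnt genes depended on how dim probes were handled. It was 3 with normexp (Sfrp5 2.56, Wnt11 1.35 and Wnt4 1.28, limma adjusted p of 0.00168, 0.034 and 0.0405) against 0.573% of features. It was 2 with no filter (Sfrp5 and Dkk1), against 0.671% of features. Both of these settings were chosen after seeing the data. Dkk1 was well above background on OSKH 4 only, so its call rested on the spread of signals near background and adds nothing to its bound. Within the same row Wnt10a, a ligand of teeth and skin, was at least 1.89-fold and Wnt7b at least 2.33-fold higher on OSKH 4 than on OSK.

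Other genes of the pathway did not pass the test between OSKH and OSK either. Limma called 0 of the 61 tested (75 listed), with 37 above 0, 24 below and a median of 0.03. At an unadjusted p under 0.05 there were 4 (6.56%), against 6.48% of all features, and 60.7% lay above 0, against 46.3%. Those with the smallest p above 0 were Bcl9l, a coactivator of beta-catenin (0.54, SE 0.12, limma adjusted p = 0.732), Rnf43, which removes Frizzled from the cell surface (0.94, SE 0.26), and the kinase Gsk3b (0.29, SE 0.11). In each of these 3 genes all OSKH arrays lay above all OSK arrays. Below 0 they were the growth regulator Myc, a target of beta-catenin (-0.57, SE 0.16), the polarity receptor Ptk7 (-0.20, SE 0.13) and the R-spondin receptor Lgr4 (-0.19, SE 0.16). All OSKH arrays lay below all OSK arrays for Myc but not for the other two. In all, the groups did not overlap in 5 of the 61 genes, against 7.34% of features. Beta-catenin itself, Ctnnb1, ran from 4.18 to 4.39 over all 8 arrays. By list, the genes above 0 were 2 of 2 for Wnt secretion, 2 of 8 other receptors, 2 of 2 R-spondins, 3 of 4 other inhibitors, 10 of 17 of the destruction complex, 9 of 14 nuclear partners, 8 of 12 target genes and 3 of 7 planar polarity genes.

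Several target genes and secreted factors were high on OSKH 4 as well. Sp5, a transcription factor induced by beta-catenin, was at -2.10, -2.43, -1.24 and 3.78 on OSKH 1 to 4, at -1.72, -1.36 and -2.57 on OSK and at -0.06 on ESC. T (brachyury), the streak factor, was at -2.61, -1.83, -1.50 and 3.71 on OSKH, -2.68, -1.22 and -2.05 on OSK, and 0.21 on ESC. For both, OSKH 1 to 3 overlapped OSK, ESC lay above them and OSKH 4 above ESC. Set against the OSK arrays of its row, OSKH 4 was higher by 5.66 for Sp5 (limma adjusted p = 0.0489), and by 5.70 for T, which did not pass here (limma adjusted p = 0.0544) but did with no filter (limma adjusted p = 0.0295) and with normexp (limma adjusted p = 0.00496). OSKH 4 was at least 130-fold above those OSK arrays for Cer1, an inhibitor of Nodal and BMP from the anterior endoderm, and at least 29.7-fold for Rspo3, a secreted amplifier of Wnt signals. The bounds were 12.8-fold for the streak factor Mixl1, 12.0-fold for the stem cell receptor Lgr5 and 10.6-fold for Frzb, a relative of the Sfrp inhibitors. These genes were singled out after their values were seen, and tested genes of the same kinds differed less. OSKH 4 minus the OSK mean was -0.27 for Rspo1 and -0.56 for Lgr4. For the 4 other inhibitors tested it was -0.01 (Notum), 0.49 (Dkkl1), 0.59 (Tpbg) and 0.63 (Apcdd1). Over all 61 pathway genes tested, OSKH 4 was the highest array in 19 (31.1%), against 11.1% of all features. Among the 12 target genes of beta-catenin tested, it was the highest array in 6. Other targets were lower on OSKH 4 than the OSK mean, by differences of -0.20 for Lef1, -0.20 for Tcf7, -0.12 for Znrf3 and -0.38 for Myc.

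The single ESC array was compared with each iPSC group, which takes the spread of the iPSC arrays to hold for ESC too. Limma called 0 of the 30 Wnt genes and 0.0% of features against either group. At an unadjusted p under 0.05 there were 0 Wnt genes (4.36% of features) against OSKH and 1, Wnt9a at -0.43 (SE 0.16), against OSK (6.02% of features). Against OSKH, 10 Wnt genes lay above 0 in ESC and 20 below, with a median of -0.11 where that of all features was 0.05. The share above 0 was 33.3%, against 59.9% of all features. That split turned without OSKH 4, when 16 lay above and 14 below with a median of 0.03. Against OSK, 17 lay above and 13 below, with a median of 0.18 where that of all features was 0.05. Here the share above 0 was 56.7%, near the 57.3% of all features. Both comparisons share the ESC array. Of the 61 other pathway genes tested, limma called 0 against either group (1 and 0 at an unadjusted p under 0.05), and 36 lay above 0 in ESC against OSKH and 45 against OSK. For these pathway genes the shares above 0 were 59% and 73.8%, against 59.9% and 57.3% of all features. All 5 secreted inhibitors tested lay below 0 against OSKH, from -1.13 for Sfrp5 to -0.10 for Dkk3, and 4 of 5 against OSK. Without OSKH 4, 4 of 5 lay below 0 against OSKH, with Sfrp5 at -0.23 and Dkk3 at 0.045.

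Among the 30 genes tested, Wnt6 and Wnt7b showed the largest gaps between ESC and the mean of the 7 iPSC arrays. Wnt6 was at -4.45 on ESC, where it was not well above background, and was well above background on all 7 iPSC arrays, at least 2.01-fold higher in OSK and at least 1.64-fold higher in OSKH (limma adjusted p = 0.833 and 0.999). Wnt7b on ESC lay at least 2.81-fold above OSK (limma adjusted p = 0.847). Fzd9, a receptor deleted in Williams syndrome, was at 1.16 on ESC, 0.26, 0.63, 1.06 and 0.56 on OSKH 1 to 4 and 0.75, 0.65 and 0.64 on OSK. ESC was the highest of the 8 arrays, 0.53 (SE 0.26) above OSKH and 0.48 (SE 0.27) above OSK, with limma adjusted p of 0.999 and 0.847. Axin2 on ESC lay 0.05 (SE 0.63) above OSKH and 0.56 (SE 0.65) above OSK, and 0.45 (SE 0.24) above OSKH without OSKH 4. When slide row was a block, the contrast of ESC with OSK joined ESC with OSKH 1 to 3 and OSKH 4 with OSK, and 1 Wnt gene passed (Sfrp5 at 3.05, limma adjusted p = 0.037, against 0.168% of features), although the ESC array itself was below every OSK array for that gene.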

How the data were processed

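Total RNA from 8 samples (ESC 1, OSKH 4, OSK 3) was labelled with Cy3 and hybridised to 1 array each, per the labels. Spots were quantified with Agilent Feature Extraction 11.5.1.1, per the file headers and the submitters' processing notes. Per the file headers, the deposited intensity of a spot had its background subtracted and was detrended on each array. The deposited files also hold score flags of 0 or 1, for example for signals well above background and for outliers. The deposited value table is on a log2 scale. It matched the log2 intensity less a constant for each array (tolerance 0.01, at least 99.7% of probes), and the medians of its columns ran from -3.71 to -3.60. It served as an alternative.

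Each array had 59305 spots besides 3671 control spots, which were left out. After 103 to 132 outlier-flagged spots per array were also left out, 55667 of 55681 probes remained. The log2 signal minus the 75th percentile (424 to 501 before log2) was used. No probe was saturated. Accessions were matched to RefSeq symbols of GRCm38.p6, which named 27650 probes; the array annotation refers to mm9. All 42 genes had a probe, 10 of them several, and the probe with the highest mean was used. Keeping probes well above background on 3 or more arrays gave 22685 features. A fit of 3 groups in limma 3.58.1 under R 4.3.3 (5 residual and 1.85 prior degrees of freedom) was adjusted by Benjamini-Hochberg across every feature, with calls at 0.05. The fit was tested on simulated data. The number of arrays limits the precision.

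For a fold given as "at least", each dim array was assigned its lowest signal well above background, or the probe's own where higher, and the mean of these was set against the brighter group's mean. Such a fold is given only where every array of the brighter group was well above background.

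Genes were named by a rule: tested members among the 10 with the smallest p for OSKH minus OSK, the 10 with the widest range, the 6 farthest from ESC, or Axin2, and, of other pathway genes, the 3 with the smallest p in each direction and any called. T, Ctnnb1, Cer1, Rspo3, Mixl1, Lgr5 and Frzb were singled out after their values were seen. Members, lists and rules were chosen with earlier results of these data known.

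Array numbers were checked as pairs: deviations from group means correlated at 0.49, 0.21 and 0.37 between same-numbered OSKH and OSK arrays, numbers that coincide with slide columns, and were taken as pairs. Alternatives were normexp (offset 50, on median signals, since the files used hold no mean signal), quantile or median scaling, no or a stricter filter, the mean of probes, the deposited table, a mean-dependent prior, slide row or array number as a block, and each iPSC array left out. A protein comparison was not made, as no protein sequences were used here.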

Additional observations from a re-analysis of the deposited data

Results flagged for a closer look

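For 5 of the 42 Wnt genes, 1 OSKH array lay far from the other 3 in its group, with a gap to the nearest array that took up most of the group's range. Dkk1 was at 1.32 on OSKH 4 and at -5.68 on the nearest OSKH array, a gap of 0.86 of the range. Sfrp5 was at 1.27 on OSKH 4 and at -2.08 on the nearest, a gap of 0.871 of the range. Dkk2, an inhibitor of the co-receptors, was at -3.84 on OSKH 4 and at -6.56 on the nearest, a gap of 0.899 of the range, but it was not well above background on any OSKH array. The other two were set apart by OSKH 1. Lrp6 was at 2.29 there and at 2.60 on the nearest array, a gap of 0.851 of the range. Fzd2, a receptor at 1.13 on OSKH 1 and at 2.84 on the nearest, had a gap of 0.889 of the range. OSKH 4 was set apart in the same way for Cer1 (2.54 against -5.36, a gap of 0.884), Frzb (-1.07 against -5.18, 0.898), Lgr5 (-0.89 against -5.00, 0.854) and Mixl1 (-0.80 against -6.57, 0.946). Chance passes the limit used in about 1 of 20 groups of 4 arrays, and 7.11% of all features tested passed it.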

How the results depend on the processing

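Of the differences of single genes between OSKH and OSK recomputed under alternatives, 490 kept their direction and their side of the threshold, 29 changed sign and 8 passed the threshold where the reported value did not; counts of calls that moved follow. The count of called features between OSKH and OSK was 0 under every alternative but slide row as a block (47) and the row block with no filter (248) or with normexp (130), and that of called Wnt genes was 1, 2 and 3 in these settings. Between ESC and OSKH, 11 features were called with no filter, 11 with the row block and no filter and 1 with the row block and normexp. Between ESC and OSK, 9 were called with no filter, 38 with the row block, 256 with the row block and no filter and 104 with the row block and normexp, and the called Wnt genes were 1, 2 and 1 in the row block settings. Leaving out any iPSC array gave 0 called features throughout. The replicate block (array numbers 1 to 3) leaves out OSKH 4; it called 0 features and changed no call at the adjusted threshold, and the limma adjusted p of Wnt6 was 0.381. Without OSKH 4, with or without that block, OSKH minus OSK was -0.26 for Fzd1, -0.090 for Fzd8, -0.32 for Sfrp5, -0.080 for Wnt11, -0.16 for Wnt3, -0.059 for Wnt4, -0.56 for Wnt5a, -0.030 for Wnt8a and -0.039 for Sp5. The highest values with 1 array left out were 0.57, 0.88, 0.96, 0.83, 1.097, 1.09, 0.50, 0.83 and 2.03 for these genes, without OSKH 1 except for Wnt11 and Sp5 (without OSKH 2). Without OSK 2, Wnt5a was at -0.22, and Fzd9 ran from -0.19 without OSKH 3 to 0.070 without OSKH 1. With slide row as a block, with or without the filter, Fzd7 was at -0.038, Wnt6 at 0.60 and Ptk7 at 0.056. With normexp as well these genes were at -0.034, 0.38 and 0.068. The Fzd7 values are those of the probe used, and a second probe put OSKH 4 at 0.69 above the OSK mean. The rows differ in which arrays they hold, and otherwise the cause was not tested. Over all alternatives the limma adjusted p of Sfrp5 ran from 0.00168 to 1.0, that of Axin2 from 0.0514 to 1.0 and that of Wnt9a from 0.414 to 1.0. Low signal over background limits the 12 genes not tested, and 1 ESC array limits both ESC comparisons.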
